A study of Mus musculus with 18 samples.

Results

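The 54 genes described here code for proteins that carry a cell through mitosis, from the kinase that starts it to the ring that pinches the daughter cells apart, and include the kinetochore, the protein plate by which a chromosome holds its spindle fibres. They were taken by name from a fixed list, which was chosen with earlier results of these data known, and read from a table of 21959 genes. All 54 passed the expression filter that left 13375 genes for testing. RNA had been sequenced from MOVAS cells, an established line of mouse aortic smooth muscle cells, in 6 groups of 3 libraries. Blank was the control group, H2O2 received hydrogen peroxide and Dox received doxorubicin, an anthracycline that damages DNA by trapping topoisomerase. The design text gives both agents as inducers of cell senescence. B_I, H_I and D_I carry only isoliensinine, an alkaloid of lotus seed, as their labelled treatment, and their titles, which run parallel to the first 3, were taken to mean isoliensinine given to Blank, H2O2 and Dox cells. All groups are 1 cell line, and the sources used here name no dose, treatment time or passage. The design text calls the replicates biological without saying what was separate, so p-values measure the spread between these libraries.

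Most mitosis genes are transcribed in a wave late in the cell cycle. In resting cells a repressor complex named DREAM sits on their promoters, and before mitosis the MuvB core of the same complex joins the activators B-Myb and FOXM1 there. Cyclin B then switches on the kinase Cdk1, a spindle forms, the spindle checkpoint holds the cell until every kinetochore is attached, and the anaphase-promoting complex ends the wait by sending cyclin B and securin for destruction. Cells that leave the cycle usually lose these transcripts. In the deposited gene ontology annotation, 38 of the 54 members carry the term cell division (369 of 21959 genes), 22 spindle (213), 21 kinetochore (150) and 17 midbody (196). In libraries made from bulk cultures, fewer cells at a stage and less of a transcript in each cell cannot be told apart.

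Library totals ran from 12859609 to 23284077 counts, and the 3 Dox libraries, at 20140802 to 23284077, were the deepest. Some libraries stood apart from their groups. Blank replicate 4 was the lowest of its group for 27 of the 54 genes and the highest for 24, and B_I replicate 3 was the lowest for 19 and the highest for 24. Of all genes tested, 43% were lowest and 40.8% highest in Blank replicate 4, and 38.7% and 38.8% in B_I replicate 3. These patterns were thus not limited to the members. The genes low in Blank replicate 4 had a median length of 6341 bases and a median level of 2.92 FPKM (counts scaled by gene length and library total, a level that can be compared between genes), and those high in it had 4273 bases and 35.2 FPKM. Dox replicate 2 was lowest for 29 genes, of median length 5715 bases, and highest for 16, of median length 4302 bases, and H2O2 replicate 3 was the lowest of its group for 32. Of all genes, 37.4% were lowest and 39.1% highest in Dox replicate 2, and 37.6% were lowest in H2O2 replicate 3. Dox replicate 3 and D_I replicate 1 were each the highest of their groups for 25 members (34.8% and 32.3% of all genes). The part of gene length in these patterns was not tested. Kif20a, Cdc20, Ube2c, Bub3, Prc1, Kif4, Nusap1, Cdca8, Ccna2, Cdc25b, Cdc25c, Kif18a and Sgo2a overlap another gene in the deposited annotation, and RefSeq lists pseudogenes named for Ccnb1, Ccnb2, Kif4 and Kif22. Whether counting used strand, and how shared reads were counted, is not given, so the values of these genes are less certain. Of the 8 smooth muscle markers, Acta2 was strong at 866 FPKM (mean of 18 libraries). Tpm2 and Myl9 stood at 155 and 131 FPKM, and Smtn and Cald1 at 29.3 and 6.05 FPKM. Myh11 and Cnn1 were low at 1.06 and 1.92 FPKM, and Tagln held no more than 20 counts in a library. The summed level of 10 gut epithelium markers reached 748 CPM (TMM-scaled, counts scaled to a common library size, the level used below unless FPKM is named) in H_I replicate 1 and at most 287 in every other library.

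Doxorubicin raised 27 of the 54 mitosis genes and lowered none (Dox against Blank, edgeR quasi-likelihood test, adjusted p under 0.05). Across all genes tested, 21.7% were called in this comparison, 10.3% higher and 11.4% lower, so the members' 27 of 54 lay above the background and on the higher side only. The median log2 change, where 1 is a doubling, was 0.56 for the members and 0.08 for all genes, and 47 of the 54 estimates were above 0. For 30 members all 3 Dox libraries lay above all 3 Blank libraries, and for none did they lie below, where 19.6% and 16.5% of all genes did so. The members' levels summed to 6041, 6100 and 6105 CPM in the Dox libraries and to 4185, 4139 and 4883 CPM in Blank. Each stage held called genes and none held called genes only. The called genes were 6 of 10 for entry into mitosis, 5 of 10 for spindle assembly, 4 of 10 for centromere and kinetochore, 3 of 5 for the spindle checkpoint, 2 of 6 for the chromosomal passenger complex and shugoshins, 2 of 4 for the anaphase trigger, 4 of 7 for cytokinesis and 1 of 2 for chromosome surface proteins. The stage medians ran from 0.32 (passenger complex and shugoshins) to 0.90 (cytokinesis). Whether stages differ from each other was not tested.

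**Figure D1:**
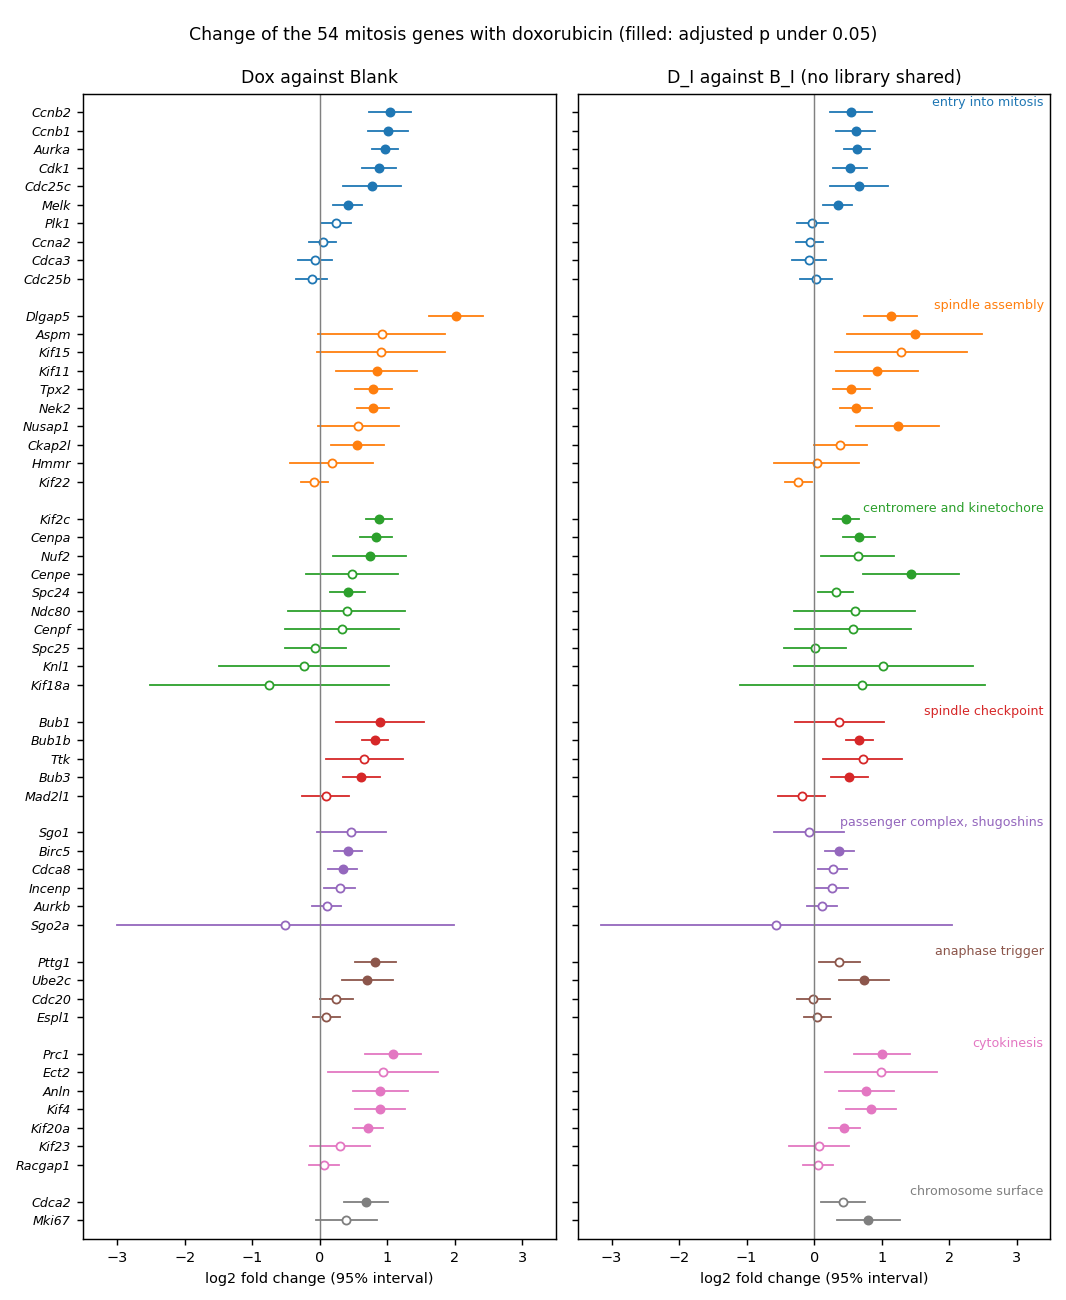
The log2 fold change (x axis) of each of the 54 genes (y axis, by stage) with its 95% interval, for Dox against Blank on the left and for D_I against B_I on the right; filled points passed an adjusted p of 0.05. The 27 filled points on the left and the 24 on the right lie to the right of 0, and the widest intervals belong to Sgo2a, Kif18a and Knl1.

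Per gene length the strongest members over the 18 libraries were Cdc20 (121 FPKM), Ube2c (100.1), Plk1 (99.7), Aurka (83.9) and Racgap1 (72.6), and the faintest were Kif18a (0.0689), Sgo2a (0.0734) and Knl1 (0.217). Precision followed the level. Of the 34 members with a mean of at least 5 FPKM, 22 were called higher in Dox against Blank, with a median log2 change of 0.59 and a median SE of 0.117. Of the 20 members below 5 FPKM, 5 were called, at a median change of 0.52 and a median SE of 0.306. The fainter genes were also the longer ones, with a median length of 6906 bases against 4302. Kif15, Aspm and Ect2 had estimates of 0.90, 0.92 and 0.94, as large as that of Cdk1, but did not pass the test at SEs of 0.458, 0.451 and 0.391. Sgo2a, at 0.0734 FPKM, held 0 to 36 counts in a library, and nothing can be read from its change.

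Of the 10 genes for entry into mitosis, 6 rose, by log2 changes of 0.41 to 1.04, and 4 did not pass. Ccnb1, which codes for cyclin B1, stood at 105, 104 and 126 CPM in Blank and 219.9, 219.5 and 238 CPM in Dox, with no overlap. Its change was 2.02-fold, a log2 change of 1.01 (SE 0.141, edgeR adjusted p = 2.38e-05). Ccnb2, its close relative, had 72.5, 74.2 and 74.4 CPM in Blank and 157, 143 and 155 in Dox (log2 change 1.04, SE 0.151, edgeR adjusted p = 3.85e-05). Blank replicate 4 had the highest Ccnb1 level of its group and still lay far under Dox. Cdk1 itself rose from 81.8, 85 and 114 CPM to 168, 174 and 176 CPM (log2 0.88, SE 0.121, edgeR adjusted p = 1.92e-05). Aurka, the kinase of the spindle poles, had 138, 142 and 151 CPM in Blank and 287, 286 and 272 CPM in Dox. Its log2 change of 0.97 (SE 0.0944, edgeR adjusted p = 3.29e-07) was among the best supported of the set. Cdc25c, a phosphatase that activates Cdk1, and Melk, a late cell cycle kinase, rose by log2 changes of 0.77 and 0.41.

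Plk1, the polo kinase that matures centrosomes and acts again at kinetochores and in cytokinesis, did not pass. It stood at 176, 186 and 234 CPM in Blank and 243, 239 and 222 in Dox, and Blank replicate 4 lay inside the Dox range. The log2 change was 0.24 (SE 0.109, edgeR adjusted p = 0.127), and without Blank replicate 4 it was 0.35 with an adjusted p of 0.0208. Plk1 was called in 6 of 18 alternatives. Ccna2, whose cyclin A acts from DNA replication until early mitosis, gave 0.04 (95% interval -0.16 to 0.24), Cdca3 gave -0.07 (-0.33 to 0.18) and Cdc25b gave -0.12 (-0.36 to 0.11). These intervals end well short of the 2-fold change seen in cyclin B.

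Promoter sequences were read for 45 of the 54 members, from 250 bases before to 50 bases after the annotated start. They are shown for 3 genes called with doxorubicin that match both motifs below, and for the cyclin B1 gene, which matched only the CCAAT box. Those of Plk1 and Cdc20, which did not pass, are also shown. The motifs are those through which DREAM and the activator NF-Y are known to reach mitosis genes: the cell-cycle homology region, searched as TTTGAA or TTCGAA, and the CCAAT box, each on both strands. Capitals mark the matches, and ATTGG is a CCAAT box on the other strand. Only these exact letters were searched, so a promoter without a match may still hold a variant of the motif. Sequences are RefSeq's, build GRCm38.p6, 5′ to 3′ on the gene's strand. Ccnb2 lies at chr9:70421505-70421804 (minus strand), Cdk1 at chr10:69352863-69353162 (minus), Aurka at chr2:172370521-172370820 (minus), Ccnb1 at chr13:100786437-100786736 (minus), Plk1 at chr7:122159185-122159484 (plus) and Cdc20 at chr4:118437294-118437593 (minus).
Ccnb2: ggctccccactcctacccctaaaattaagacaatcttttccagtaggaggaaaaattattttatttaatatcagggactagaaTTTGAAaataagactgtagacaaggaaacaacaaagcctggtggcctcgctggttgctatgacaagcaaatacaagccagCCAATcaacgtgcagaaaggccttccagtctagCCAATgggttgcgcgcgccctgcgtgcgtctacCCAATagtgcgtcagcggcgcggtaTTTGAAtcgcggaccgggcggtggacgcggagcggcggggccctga
Cdk1: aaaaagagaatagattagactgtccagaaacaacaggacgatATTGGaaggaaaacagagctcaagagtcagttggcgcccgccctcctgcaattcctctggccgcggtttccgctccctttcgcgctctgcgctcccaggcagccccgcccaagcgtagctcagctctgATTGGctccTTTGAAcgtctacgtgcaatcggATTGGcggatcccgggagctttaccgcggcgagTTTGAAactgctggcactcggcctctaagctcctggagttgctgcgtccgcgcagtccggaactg
Aurka: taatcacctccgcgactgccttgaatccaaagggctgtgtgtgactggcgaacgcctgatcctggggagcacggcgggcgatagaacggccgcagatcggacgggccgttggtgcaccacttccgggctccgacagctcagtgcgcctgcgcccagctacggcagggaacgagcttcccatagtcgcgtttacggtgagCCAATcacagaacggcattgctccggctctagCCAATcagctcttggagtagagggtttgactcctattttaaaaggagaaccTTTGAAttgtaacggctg
Ccnb1: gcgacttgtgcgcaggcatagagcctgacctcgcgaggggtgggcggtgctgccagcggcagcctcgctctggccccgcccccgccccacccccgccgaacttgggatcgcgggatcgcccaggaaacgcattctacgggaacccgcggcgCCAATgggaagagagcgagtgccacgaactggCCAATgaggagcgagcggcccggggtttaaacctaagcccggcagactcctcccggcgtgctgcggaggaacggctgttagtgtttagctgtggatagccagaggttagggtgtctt
Plk1: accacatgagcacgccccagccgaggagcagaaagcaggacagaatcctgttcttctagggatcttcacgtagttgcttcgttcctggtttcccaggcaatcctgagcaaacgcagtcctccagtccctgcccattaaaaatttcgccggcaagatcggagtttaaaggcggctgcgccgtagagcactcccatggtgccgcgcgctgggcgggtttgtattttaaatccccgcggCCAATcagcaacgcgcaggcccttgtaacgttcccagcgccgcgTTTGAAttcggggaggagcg
Cdc20: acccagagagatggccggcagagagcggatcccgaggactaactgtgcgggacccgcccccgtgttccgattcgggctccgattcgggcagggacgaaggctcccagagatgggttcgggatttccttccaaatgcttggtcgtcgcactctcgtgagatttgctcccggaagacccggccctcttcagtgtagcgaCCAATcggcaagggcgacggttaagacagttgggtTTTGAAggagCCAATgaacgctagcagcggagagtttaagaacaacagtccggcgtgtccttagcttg

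The homology region letters were found in 34 of the 45 member promoters (75.6%), where 21.7% of 27025 genes with a promoter entry hold them, and in 32 of the 34 they lay within 50 bases of the start. CCAAT letters were found in 33 of 45 (73.3%, all genes 41.1%), at least 2 of them in 22 of 45 (48.9%, all genes 13.3%), and both motifs in 29 of 45 (64.4%, all genes 8.61%). A match to one motif does not need a match to the other, though matches may overlap at their ends. Called and not called members were set side by side for each motif. The homology region letters stood in 15 of 21 members called with doxorubicin (71.4%) and in 19 of 24 not called (79.2%). CCAAT letters stood in 71.4% and 75.0%, both motifs in 61.9% and 66.7%, and at least 2 CCAAT boxes in 57.1% and 41.7%. A pair of CCAAT boxes on the same strand 31 to 33 bases apart, as in the Ccnb2, Cdk1, Aurka and Ccnb1 promoters above, was found in 6 of 21 called (28.6%), 2 of 24 not called (8.33%) and 0.918% of all genes. These counts are small, and no test was made of them.

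**Figure D2:**
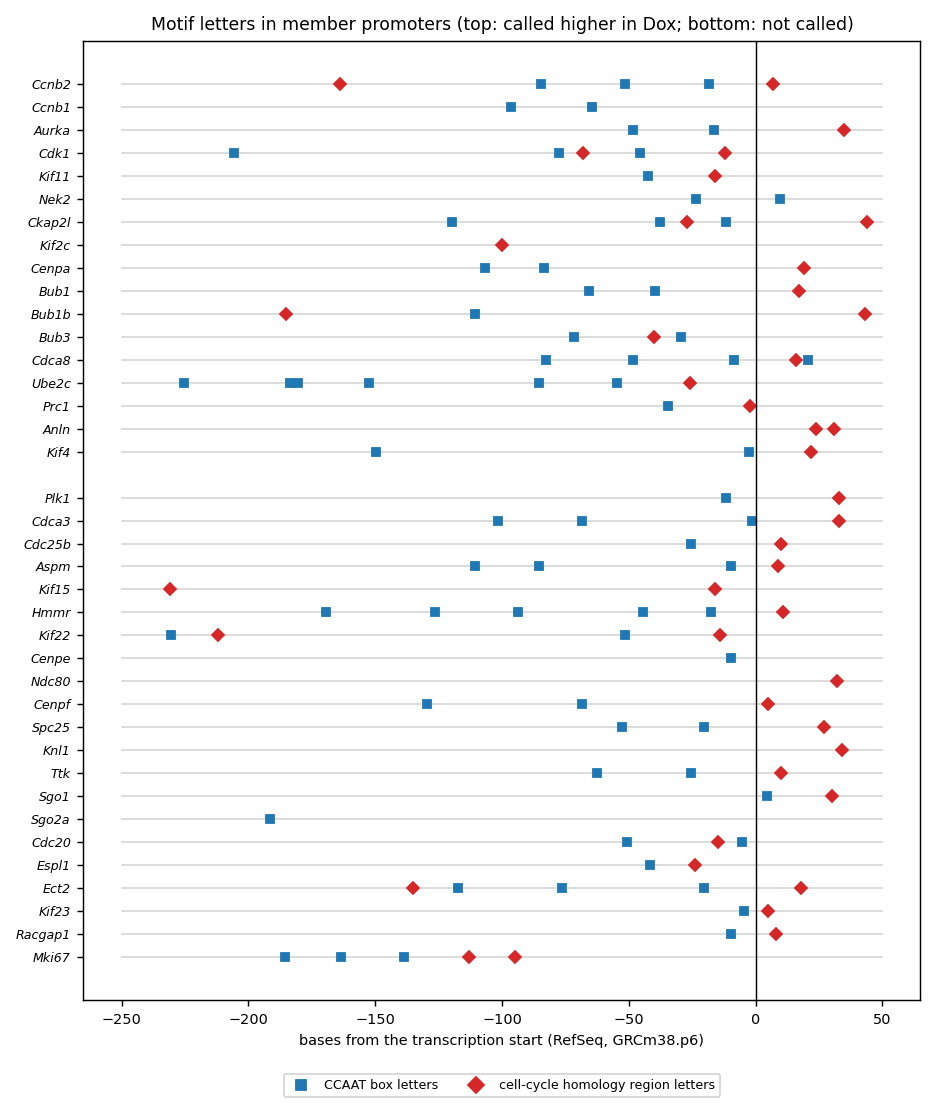
Positions of CCAAT letters (blue squares) and cell-cycle homology region letters (red diamonds) from 250 bases before to 50 bases after the start (x axis, bases) in the promoters of the 38 members that hold at least 1 of them (y axis), the 17 called higher in Dox above the gap and 21 not called below it. Most red diamonds sit near the start, and most blue squares lie upstream of it, in both blocks.

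Among the spindle assembly genes, Dlgap5 had the largest change of all 54. Its protein, HURP, binds and stabilises the spindle fibres near chromosomes. The Blank libraries held 13.6, 12.6 and 7.51 CPM and the Dox libraries 43.4, 41.7 and 52.3 CPM, a 4.06-fold difference (log2 2.02, SE 0.194, edgeR adjusted p = 2.74e-07). Tpx2, which carries and activates Aurora A on the spindle, rose by 0.80, Nek2, a kinase that splits the centrosomes, by 0.79, and Ckap2l, a spindle protein, by 0.56. Kif11, the motor that pushes the spindle poles apart, had 8.84, 9.36 and 5.63 CPM in Blank and 18, 8.68 and 16.1 CPM in Dox, so Dox replicate 2 fell among the Blank values. Its log2 change was 0.84 (SE 0.286, edgeR adjusted p = 0.0389), and the call held in 9 of 18 alternatives, with adjusted p of 0.174 without Blank replicate 4, 0.194 without Dox replicate 1, 0.141 without Dox replicate 3 and 0.059 without Blank replicate 1. Hmmr (0.17, -0.44 to 0.79) and the chromosome-arm motor Kif22 (-0.08, -0.28 to 0.12) did not pass, and neither did Kif15, Aspm and Nusap1, all of them under 2 FPKM.

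**Figure D3:**
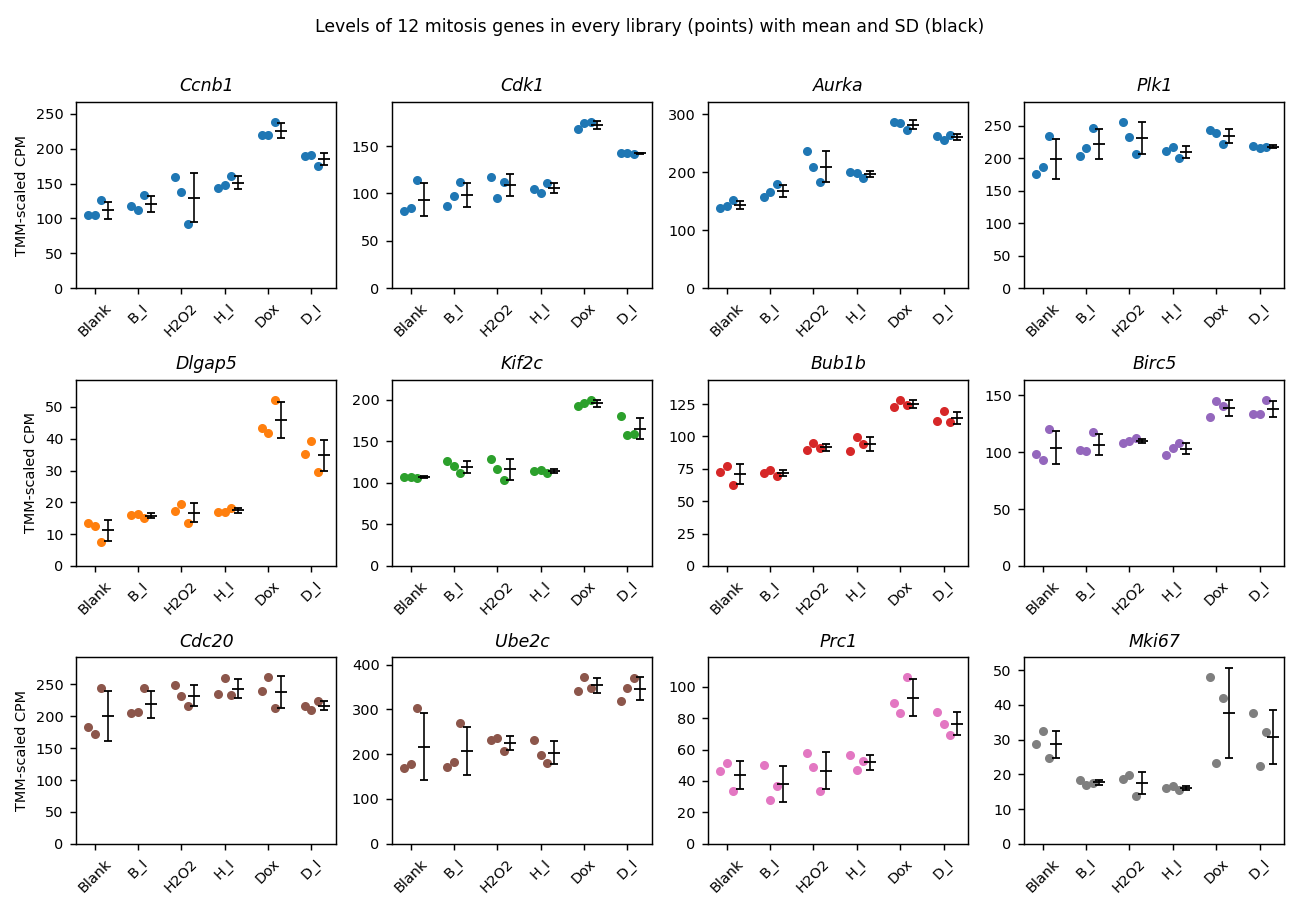
TMM-scaled CPM (y axis, from 0) of 12 mitosis genes in each of the 18 libraries by group (x axis), with the mean and SD of the 3 libraries beside the points. Ccnb1, Cdk1, Aurka, Dlgap5, Kif2c and Bub1b show Dox apart from Blank and D_I a little under Dox, Plk1 and Cdc20 show Dox overlapping Blank, and Mki67 shows Dox replicate 2 far under the other 2 Dox libraries.

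At the centromere, Cenpa and Kif2c rose while the outer kinetochore gave mixed values. Cenpa, the histone variant that marks the centromere, had 95.7, 87.8 and 119.9 CPM in Blank and 171, 192 and 177 CPM in Dox (log2 0.83, SE 0.116, edgeR adjusted p = 2.26e-05). Kif2c, a depolymerase that frees wrongly attached fibres, had 107, 108 and 106 CPM in Blank and 192, 196 and 200.5 CPM in Dox. The Blank values lay within 3 CPM of each other and far below Dox (log2 0.88, SE 0.0943, edgeR adjusted p = 1.12e-06). Of the 4 subunits of the Ndc80 complex, which grips the fibres, Nuf2 rose by 0.74 and Spc24 by 0.41, whereas Ndc80 (0.40, -0.47 to 1.27) and Spc25 (-0.07, -0.52 to 0.39) did not pass. Cenpe, Cenpf, Knl1 and Kif18a, at 0.503, 0.251, 0.217 and 0.0689 FPKM, had intervals too wide to place on either side of 0.

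The checkpoint genes that rose were the Bub genes. Bub1b, whose protein BubR1 holds back the anaphase-promoting complex, had 72.8, 77.2 and 62.5 CPM in Blank and 122, 128 and 124 CPM in Dox (log2 0.82, SE 0.0947, edgeR adjusted p = 2.8e-06). Bub3, its partner, had 187, 176 and 263 CPM in Blank and 306, 344 and 307 CPM in Dox (log2 0.62, SE 0.131, edgeR adjusted p = 0.0017). Both genes stood apart between the groups. Bub1, the kinase that seeds the checkpoint at kinetochores, was at 4.61, 4.37 and 3.15 CPM in Blank and 8.98, 4.75 and 8.82 CPM in Dox. Every Dox library lay above every Blank library, though Dox replicate 2 did so only narrowly. The change of 0.89 (SE 0.315, edgeR adjusted p = 0.0473) kept its call in 6 of 18 alternatives, and leaving out any library of the comparison except Dox replicate 2 ended it, at adjusted p of 0.067 to 0.18. Mad2l1, the checkpoint's soluble inhibitor, gave 0.09 (-0.26 to 0.44), and the kinase Ttk gave 0.66 (edgeR adjusted p = 0.0924).

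In the chromosomal passenger complex, which corrects faulty attachments, changes were small. Birc5, coding for survivin, stood at 98.3, 92.9 and 120.3 CPM in Blank and 131, 145 and 141 CPM in Dox (log2 0.42, SE 0.103, edgeR adjusted p = 0.00515). Cdca8, coding for borealin, had 88.4, 79.2 and 91.5 CPM in Blank and 104, 113 and 111 CPM in Dox (log2 0.34, SE 0.105, edgeR adjusted p = 0.0242). The Birc5 call was lost when the model was fitted to the 6 libraries alone (adjusted p = 0.0566), and the Cdca8 call held in 12 of 18 alternatives, with adjusted p of 0.0943, 0.0737 and 0.0775 without Blank replicate 2, Dox replicate 2 and Dox replicate 3. Aurkb, the kinase of the complex, had 102, 93.2 and 109 CPM in Blank and 114, 107 and 105 CPM in Dox, which overlapped (log2 0.10, SE 0.105, edgeR adjusted p = 0.549). Incenp, its scaffold, gave 0.29 (edgeR adjusted p = 0.0643), and Sgo1, a guardian of centromeric cohesion, gave 0.47 (0.199).

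In the anaphase trigger 2 genes rose and the other two did not pass. Pttg1, coding for securin, the inhibitor that must be destroyed before sisters separate, had 34.6, 31.8 and 47.9 CPM in Blank and 66.7, 75 and 60.5 CPM in Dox (log2 0.82, SE 0.149, edgeR adjusted p = 0.000386). Ube2c, the ubiquitin-conjugating enzyme of the anaphase-promoting complex, had 169, 179 and 302 CPM in Blank and 342, 372 and 347 CPM in Dox. Blank replicate 4 stood well above the other Blank libraries but below Dox (log2 0.71, SE 0.179, edgeR adjusted p = 0.00688). Cdc20, the activator of the complex and the strongest member per length at 121 FPKM, had 184, 173 and 245 CPM in Blank and 240.5, 261 and 212 CPM in Dox. The groups overlapped (log2 0.25, SE 0.118, edgeR adjusted p = 0.15), and without Blank replicate 4 the change was 0.39 with an adjusted p of 0.0119. Cdc20 was called in 6 of 18 alternatives. Espl1, coding for the separase that securin restrains, gave 0.10 (-0.10 to 0.30).

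Of the 7 cytokinesis genes 4 rose. Prc1, which bundles the central spindle, had 46.3, 51.4 and 33.8 CPM in Blank and 89.7, 83.4 and 106 CPM in Dox (log2 1.08, SE 0.2, edgeR adjusted p = 0.000518). Anln, coding for anillin of the contractile ring, had 74.8, 85.2 and 53.6 CPM in Blank and 141, 114 and 143 CPM in Dox (log2 0.90, SE 0.195, edgeR adjusted p = 0.00203). In both genes Blank replicate 4 was the lowest library and the groups stayed apart. The central spindle motors Kif4 and Kif20a rose by 0.90 and 0.72. Kif23 and Racgap1, the subunits of centralspindlin, gave 0.30 (-0.14 to 0.74) and 0.07 (-0.16 to 0.29), Racgap1 at 72.6 FPKM with an interval that leaves no room for a 2-fold change. Ect2, the exchange factor that centralspindlin calls to the equator, gave 0.94 (edgeR adjusted p = 0.0965).

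Mki67, the surface coat of mitotic chromosomes and the usual proliferation marker, had 28.8, 32.6 and 24.8 CPM in Blank and 48, 23.2 and 42 CPM in Dox. Dox replicate 2 lay below all 3 Blank libraries and the other 2 Dox libraries above them (log2 0.39, SE 0.219, edgeR adjusted p = 0.226). Without Dox replicate 2 the change was 0.65 with an adjusted p of 0.0246, the only 1 of 18 alternatives in which Mki67 was called. Cdca2, which brings a phosphatase to chromosomes at mitotic exit, had 42.1, 41.7 and 32.1 CPM in Blank and 64.3, 60.4 and 62.1 CPM in Dox, with no overlap (log2 0.69, SE 0.157, edgeR adjusted p = 0.00304).

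The same question could be put to other groups, since D_I against B_I shares no library with the Dox and Blank groups. Both comparisons came from 1 fit to the 18 libraries with common scaling and estimates of spread, so their calls are not fully independent. There 24 of 54 members were higher and none lower (44.4%), against 18.8% of all genes called, 9.41% in each direction. The median log2 change was 0.52, and 20 genes were called in both comparisons, 74.1% of the 27 and 83.3% of the 24. Dlgap5 stood at 16.1, 16.4 and 15 CPM in B_I and 35.3, 39.4 and 29.6 CPM in D_I, without overlap (log2 1.14, SE 0.189, edgeR adjusted p = 0.000209). Aurka had 157, 166 and 179 CPM in B_I and 263, 255 and 265 CPM in D_I (log2 0.64, SE 0.0939, edgeR adjusted p = 5.65e-05). Prc1 had 50.4, 27.5 and 36.6 CPM in B_I and 84.1, 76.5 and 69 CPM in D_I (log2 1.002, SE 0.201, edgeR adjusted p = 0.00132). Bub1, Cdca2, Cdca8, Ckap2l, Nuf2, Pttg1 and Spc24 were called in the first comparison and not here, where their log2 changes were 0.27 to 0.65. Aspm, Cenpe, Mki67 and Nusap1 were called here and not in the first comparison, and no difference between the comparisons was called for them. These 4 had changes of 1.49, 1.44, 0.80 and 1.24. For Aspm, Cenpe and Mki67 all B_I libraries lay below all Blank libraries, so their changes are measured from a lower level than in Blank. Aspm, a faint gene, stood at 1.22, 1.74 and 0.385 CPM in B_I and 3.36, 3.81 and 2.27 CPM in D_I. Its Blank libraries, at 3.86, 2.34 and 1.95 CPM, overlapped D_I. Mki67 stood at 18.5, 16.9 and 17.6 CPM in B_I and 37.7, 22.4 and 32.3 CPM in D_I. The Mki67 call was lost without B_I replicate 2 (adjusted p = 0.067) or D_I replicate 1 (adjusted p = 0.1003). The count of called members ran from 16 to 25 when single libraries were left out, with 16 without B_I replicate 2. The share of all genes called in those fits is not given here, so this range is not read as particular to the members. Plk1 and Cdc20 gave -0.03 (-0.25 to 0.20) and -0.01 (-0.26 to 0.23).

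With isoliensinine beside doxorubicin the mitosis genes lay slightly lower, but no single gene passed. In D_I against Dox 0 members were called by edgeR, and 0% of all 13375 genes were. At an unadjusted p under 0.05 there were 7 of 54 members and 556 of 13375 genes, and the members' adjusted p was 0.9995. DESeq2 called 0 members and limma 0. Of the 54 estimates, 49 were below 0, and the median log2 change was -0.18, where that of all genes was 0.00. For 20 members all 3 D_I libraries lay below all 3 Dox libraries, and for none did they lie above, where 8.62% and 10.2% of all genes did so. The members summed to 5551, 5496 and 5525 CPM in D_I, between the sums in Blank and Dox given above. Fitted to these 6 libraries alone, where the biological coefficient of variation was 0.133 in place of 0.219, edgeR called 6 members lower among 53 tested, against 2.09% of 12589 genes called and 1.22% called lower. These were Ccnb1 (-0.30, adjusted p = 0.0205), Cdk1 (-0.30, 0.0209), Kif20a (-0.28, 0.0293), Anln (-0.36, 0.0435), Kif23 (-0.49, 0.0459) and Kif2c (-0.26, 0.0488).

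**Figure D4:**
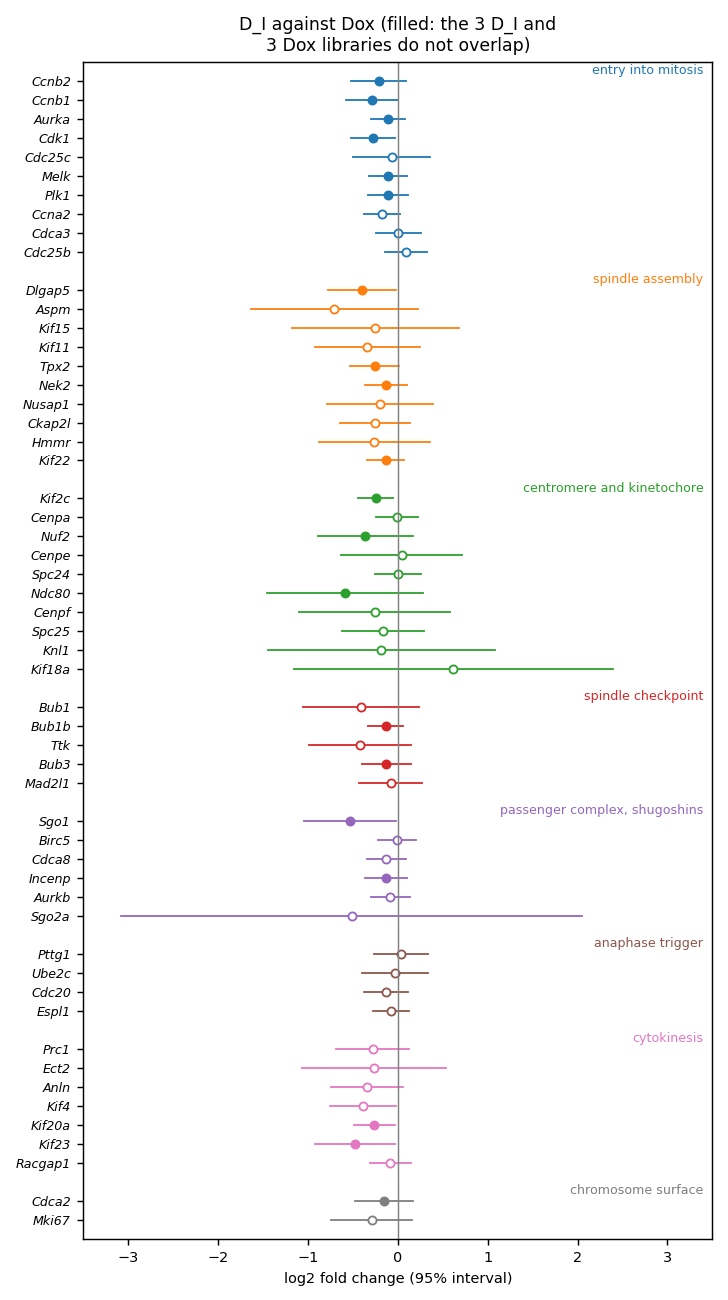
The log2 fold change of D_I against Dox (x axis) with its 95% interval for the 54 genes by stage (y axis); filled points mark the 20 genes whose 3 D_I libraries all lie below the 3 Dox libraries. The points lie mostly between 0 and -0.5, and the anaphase trigger is the block with no filled point.

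By stage, the genes with all D_I libraries below all Dox libraries were 6 of 10 for entry into mitosis (Cdk1, Ccnb1, Ccnb2, Plk1, Aurka and Melk), 4 of 10 for spindle assembly (Tpx2, Dlgap5, Nek2 and Kif22) and 3 of 10 for centromere and kinetochore (Ndc80, Nuf2 and Kif2c). They were 2 of 5 for the checkpoint (Bub1b and Bub3), 2 of 6 for the passenger complex and shugoshins (Incenp and Sgo1), 0 of 4 for the anaphase trigger, 2 of 7 for cytokinesis (Kif20a and Kif23) and 1 of 2 for chromosome surface proteins (Cdca2). Cdk1 stood at 143, 143 and 141 CPM in D_I, under every Dox library and over every Blank library (log2 -0.28 against Dox, 95% interval -0.53 to -0.03). Ccnb1 had 189, 191 and 176 CPM (log2 -0.28, -0.57 to 0.01) and Ccnb2 129, 123 and 140.1 CPM (-0.22, -0.52 to 0.09). Both cyclins and their kinase thus kept most of their rise over Blank.

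Dlgap5, at 35.3, 39.4 and 29.6 CPM, gave -0.40 (-0.78 to -0.02), and Kif2c, at 180.3, 158 and 158 CPM, gave -0.25 (-0.44 to -0.05). Both stayed above every Blank and B_I library. The anaphase genes overlapped between D_I and Dox, with Ube2c at 319, 347 and 371 CPM in D_I (-0.03, -0.40 to 0.34) and Pttg1 at 71.9, 71 and 64.2 CPM (0.03, -0.27 to 0.34). Cenpa (174, 174 and 188 CPM) and Birc5 (134, 133 and 146 CPM), with -0.01 and -0.01, also overlapped Dox. Among members of at least 5 FPKM the estimate furthest below 0 was that of Kif4, at -0.39 (-0.75 to -0.03).

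Other measures moved between the same groups. Dox libraries held 20140802 to 23284077 counts and D_I libraries 15329101 to 16921525. With every library thinned to the same depth, 20 members were entirely lower in D_I and 1 entirely higher (8.52% and 10.2% of all genes). The summed level of 8 smooth muscle markers was 2516 to 2883 CPM in Dox and 1526 to 1803 CPM in D_I. Most of it was Acta2, whose own change was -0.98 (SE 0.591). The same sum varied widely within the groups without an inducer, from 1532 to 5663 CPM in Blank and from 1819 to 4888 CPM in B_I. Ribosomal protein genes took 6.78 to 7.33% of counts in Dox and 6.34 to 6.76% in D_I. The part of these in the lower mitosis levels was not tested. The related lists described below also held more estimates below 0 than above in D_I against Dox, with 0 genes called. Condensin and cohesin had a median of -0.19 (14 of 18 below 0), as low as that of the members. The other kinetochore genes had -0.08 (25 of 28), the brakes on entry -0.07 (9 of 11), the regulators -0.04 (10 of 16), DNA replication -0.04 (17 of 29) and the anaphase-promoting complex -0.03 (11 of 17). Whether the members differ from these lists was not tested.

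Without an inducer, isoliensinine left the members on both sides of 0. In B_I against Blank 0 members and 0% of all genes were called by edgeR, and 0 members by DESeq2 or limma. An unadjusted p under 0.05 was reached by 8 of 54 members and 640 of 13375 genes. The median was -0.06, with 22 estimates above 0 and 32 below, and the libraries did not overlap for 6 members higher and 4 lower, where 3.57% and 3.72% of all genes did so. Some groups of members leaned lower here too. Cytokinesis had 6 of 7 estimates below 0 (median -0.22), and centromere and kinetochore 7 of 10 (median -0.39). The 20 members under 5 FPKM had a median of -0.47 in B_I against Blank and -0.32 in D_I against Dox, at median SEs of 0.311 and 0.303, and the 34 others 0.01 and -0.13. The difference between the isoliensinine effects with and without doxorubicin was called for 0 members (0% of all genes), with a lowest adjusted p of 1.0. Its unadjusted p was under 0.05 for 6 of 54 members and 521 of 13375 genes. In H_I against H2O2 again 0 members and 0% of genes were called by edgeR, and 0 members by DESeq2 or limma. This comparison had 1 of 54 members and 915 of 13375 genes at an unadjusted p under 0.05. Its median for the members was -0.03, and its difference from the effect without inducer was called for 0 members (0% of genes). That difference had an unadjusted p under 0.05 for 5 of 54 members and 813 of 13375 genes.

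Hydrogen peroxide, the other inducer, raised 1 member. In H2O2 against Blank, where 1.43% of all genes were called and 0.636% called higher, Aurka stood at 237, 209 and 183 CPM in H2O2, above every Blank library (log2 0.54, SE 0.0941, edgeR adjusted p = 0.0036). Fitted to the 6 libraries alone, its adjusted p was 0.326. The members' median was 0.05, with 30 estimates above 0. Bub1b, at 89.6, 94.7 and 90.8 CPM in H2O2 and 88.5, 99.7 and 94 CPM in H_I, also lay above all Blank and B_I libraries (log2 0.37 in H2O2 against Blank, edgeR adjusted p = 0.0525). In H_I against B_I it was the 1 member called (log2 0.40, SE 0.0947, edgeR adjusted p = 0.0416), where 1.46% of genes were called and 0.464% called higher, and leaving out any 1 library of that comparison ended the call.

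Without Blank replicate 4 the count for H2O2 against Blank was 3, and without Blank replicate 4, B_I replicate 3, H2O2 replicate 3 and H_I replicate 1 it was 11. The shares of all genes called under these settings are not given here, so these counts have no background beside them. Compared directly, Dox exceeded H2O2 in 25 members and fell below it in none, where 13.1% of all genes were called, 6.73% higher and 6.33% lower. The median log2 change was 0.54. Dlgap5 led again, with 17.3, 19.3 and 13.4 CPM in H2O2 (log2 1.45, SE 0.189, edgeR adjusted p = 4.03e-05). Kif4 (1.11), Mki67 (1.11), Tpx2 (1.004) and Prc1 (0.995) followed among called genes, and Plk1 (0.02, -0.21 to 0.24) and Cdc20 (0.04, -0.21 to 0.28) did not pass.

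**Figure D5:**
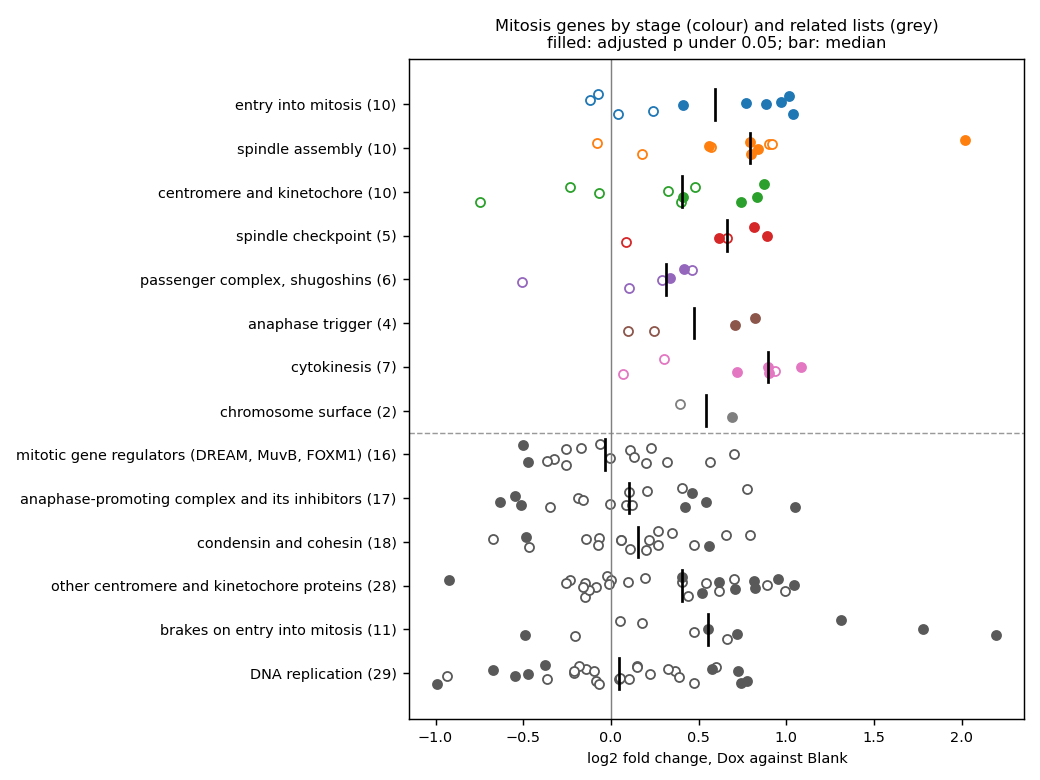
The log2 fold change of Dox against Blank (x axis) for each gene of the 8 mitotic stages (colour) and of 6 related lists (grey), with the number of tested genes in brackets, filled where the adjusted p was under 0.05 and a bar at the median. The stages have medians of 0.32 to 0.90, and the regulators and DNA replication genes centre near 0.

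The genes that work around the 54 members did not all go with them in Dox against Blank, where 10.3% of all genes were called higher and 11.4% lower. Of 16 genes for the DREAM and MuvB complexes and their partners, 0 rose and 2 fell, with a median of -0.03. The 2 were Mybl2, coding for the activator B-Myb (-0.50, SE 0.173, edgeR adjusted p = 0.0434), and Lin37, a MuvB subunit (-0.48, SE 0.145, edgeR adjusted p = 0.022). Mybl2 had 187, 179.7 and 310.3 CPM in Blank, where replicate 4 is the high one, and 165, 163 and 151 CPM in Dox. In D_I against B_I, where 9.41% of all genes were called in each direction, 1 of the 16 was called higher and 0 lower. The falls of Mybl2 and Lin37 were thus not called there. Foxm1 was at 284, 311 and 384 CPM in Blank and 387, 394 and 366 CPM in Dox (log2 0.23, SE 0.109, edgeR adjusted p = 0.150). Of 17 genes of the anaphase-promoting complex and its inhibitors 4 rose and 3 fell, with Anapc4 at 1.05, Anapc11 at -0.63 and Anapc5 at -0.54. Of 18 condensin and cohesin genes 1 rose (Ncapd3, 0.56) and 1 fell (Ncaph2, -0.49).

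Of 28 further kinetochore genes, 8 rose and 1 fell, at a median of 0.40. Nsl1, of the inner-to-outer linker, rose by 1.04 and Zwilch, of the corona that holds the checkpoint, by 0.95, while Cenpm of the inner kinetochore fell by 0.93. Of the 11 tested genes listed as brakes on entry into mitosis, 5 rose and 1 fell. Cdkn1a, coding for the Cdk inhibitor p21 and a standard target of p53, rose from 110, 97.2 and 90.5 CPM in Blank to 422, 529.8 and 416 CPM in Dox (log2 2.20, SE 0.127, edgeR adjusted p = 4.37e-10). Ccng1 and Plk2, p53 targets as well, rose by 1.78 and 1.31. The kinase gene Pkmyt1, which holds Cdk1 off, fell by 0.49. Of 29 DNA replication genes 4 rose and 5 fell, at a median of 0.05, led by Chaf1b, a chromatin assembly factor, at -0.99, Rrm2, a ribonucleotide reductase subunit, at 0.77, and Mcm10, at 0.74. In D_I against B_I, which shares no library with these values, Cdkn1a rose by 1.94 and Foxm1 by 0.34 (edgeR adjusted p = 4.01e-09 and 0.0335).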

How the data were processed

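RNA was sequenced from 18 MOVAS libraries. Polyadenylated RNA had been captured on poly-T beads, fragmented and copied from random primers, per the labels' protocols, which do not state strand. The submitters' processing notes list HISAT2 2.1.0, HTSeq 0.9.1 and fastp 0.22.0. No source used here names the genome build, so deposited coordinates are not printed. The deposited table holds raw read counts per gene and library, per the file headers. Its FPKM values, also the authors', equal count over gene length and library total in 100% of cells (relative tolerance 1e-06). Totals of 12859609 to 23284077 counts set the precision.

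The counts were tested with edgeR 4.0.16 (R 4.3.3): expression filter by group (13375 of 21959 genes), TMM scaling, a quasi-likelihood fit to the 18 libraries together and Benjamini-Hochberg adjustment over all genes tested, called under 0.05. SE is the size of the log2 change over the square root of its F statistic. The pipeline was tested on simulated data with known changes, set only in genes above a minimum level. Those changes were larger than the members' changes in D_I against Dox, so the simulation does not cover changes of that size. Alternatives used DESeq2 1.42.0, limma 3.58.1 on log2 of FPKM plus 1 or 0.1, other scalings and filters, the 6 libraries compared alone, a replicate block and libraries left out singly. Thinned counts and fits without sets of libraries that stood apart were added after seeing the data. RefSeq promoters (GRCm38.p6) were matched by symbol. Protein sequences were not used here.

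Values in every library are given for the 2 largest called changes of each stage in Dox against Blank, for members called with isoliensinine or in H2O2 against Blank, and for Cdk1, Ccnb1, Plk1, Aurka, Aurkb, Cenpa, Bub3, Cdc20 and Mki67. Up to 3 called genes of each related list are named, with Cdkn1a and Foxm1. Other members were named after their values were seen. The members, stages, lists, motifs and rule were chosen with earlier results of these data known. Marker lists not described in the report summed, over the libraries, to 36.1 to 76.3 CPM for macrophages, 14.0 to 27.6 for endothelium, 0.387 to 2.89 for NK and T cells and 37.2 to 319 for liver, the last highest in H_I replicate 1.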

Additional observations from a re-analysis of the deposited data

Results flagged for a closer look

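For 4 genes the isoliensinine effect ran in opposite directions with and without doxorubicin in every library: all 3 B_I libraries lay above all 3 Blank libraries, and all 3 D_I libraries lay below all 3 Dox libraries. This held for 4 of 54 members (7.41%) and for 53 of 13375 genes (0.396%), and the reverse for 0 members and 36 genes (0.269%). The difference between the effects (log2, edgeR quasi-likelihood interaction) was -0.89 for Dlgap5 (SE 0.266, adjusted p = 1.0), -0.50 for Ccnb2 (SE 0.212, adjusted p = 1.0), -0.41 for Kif2c (SE 0.133, adjusted p = 1.0) and -0.33 for Aurka (SE 0.132, adjusted p = 1.0). None passed adjustment over 13375 genes, nor did any other gene. Dlgap5 stood at 13.6, 12.6 and 7.51 CPM in Blank and 16.1, 16.4 and 15.0 CPM in B_I. It stood at 43.4, 41.7 and 52.3 CPM in Dox and 35.3, 39.4 and 29.6 CPM in D_I.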

How the results depend on the processing

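The count of members called higher in Dox against Blank (27) ran from 21 (adjusted p under 0.01, or the 6 libraries alone) to 36 (limma on FPKM, where 37.6% and 36.9% of genes were called), with 0 called lower in each, and from 22 to 26 with single libraries left out. FPKM is scaled by library totals, which shifts every log2 change of Dox against Blank by 0.18 relative to TMM, of D_I against B_I and H_I against B_I by 0.16 and of H2O2 against Blank by 0.12. The 20 members entirely lower in D_I than Dox were 20 with DESeq2 size factors, upper-quartile scaling, deposited FPKM and thinned counts, which also gave 1 entirely higher. Counts for D_I against B_I ran from 16 to 32 and for Dox against H2O2 from 17 to 31. D_I against Dox gave 6 with the 6 libraries alone. H2O2 against Blank (1) gave 0 with the 6 libraries alone, 2 with DESeq2, upper-quartile scaling or at least 5 CPM, 7 with limma at either pseudocount, 1 to 3 with single libraries left out, 8 without Blank replicate 4 and B_I replicate 3, and 11 when H2O2 replicate 3 and H_I replicate 1 were also left out. That last setting gave 1 for B_I against Blank, 3 for H_I against B_I and 1 for the difference of the isoliensinine effects with and without H2O2. H_I against B_I (1) gave 0 at an adjusted p under 0.01, with DESeq2 size factors, without a filter, with the 6 libraries alone and, in range, 0 to 0 with single libraries left out, and 4 and 3 with limma at pseudocounts 1 and 0.1. The cause was not tested. Among the alternative settings, the share of all genes called is given only for limma in Dox against Blank and for D_I against Dox in its 6 libraries. The other counts have no such background beside them and are not read as particular to the members.

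Replicate numbers gave no clear pairing of the libraries: same-numbered libraries correlated between -0.19 and 0.28, not all above 0.1, and Blank holds no replicate 3. The highest correlation was 0.33, between B_I replicate 3 and Blank replicate 4, which bear different numbers. Whether these share a batch was not tested. With a replicate block the counts were 25 for Dox against Blank, 30 for D_I against B_I, 28 for Dox against H2O2, 2 for H2O2 against Blank and 0 for D_I against Dox.

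Some named genes near 0 changed sign. With single libraries left out, D_I against Dox ran from -0.049 to 0.036 for Cenpa, -0.058 to 0.017 for Birc5, -0.088 to 0.018 for Ube2c and -0.041 to 0.11 for Pttg1, and D_I against B_I from -0.086 to 0.024 for Plk1 and -0.073 to 0.041 for Cdc20. With thinned counts Cenpa gave 0.0050. In D_I against B_I, limma gave 0.14 and 0.14 for Plk1 and 0.15 and 0.16 for Cdc20. Without Blank replicate 4 and B_I replicate 3 these were 0.018 and 0.036, and without H2O2 replicate 3 and H_I replicate 1 as well 0.025 and 0.043.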
